A study of Homo sapiens with 6 samples.

Results

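The genes described here are the 4 members of the ID family (ID1, ID2, ID3 and ID4) and 6 genes of bone morphogenetic protein (BMP) signalling that act as ligands or as feedback on the pathway (SMAD6, SMAD7, SMAD9, BMP4, BMP7 and BAMBI). They were chosen by symbol, matched to the gene identifiers of the count table through GENCODE release 29, and all 10 were found among its 58721 genes. All 10 also passed the filter on low counts that left 14180 genes for testing. The RNA came from HEK293T cells, an established line derived from human embryonic kidney. The 3 wild type libraries were compared with 3 libraries of HEK293T cells in which ALKBH5 and FTO had both been knocked out with CRISPR/Cas9. These genes encode the demethylases that remove N6-methyladenosine from RNA. All cells grew in the same serum-containing medium. They were lysed with Triton X-100 in the presence of cycloheximide, the lysates were cleared by centrifugation, and the RNA was depleted of ribosomal RNA. To each 1 µg of RNA, 7 pg of GFP and 1.2 pg of FLuc spike-in mRNA were added. The labels name no BMP ligand or inhibitor in either group. The sources used here do not give the number of clones behind the double knockout, or how the wild type cells, whose columns are named HEK293G6, relate to the knockout cells. A difference between lines therefore cannot be told apart from the knockout. The labels number the libraries of each group but do not say that they came from separate cultures, so p-values measure only the spread between these libraries, which may be technical.

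BMPs are secreted ligands that bring together type I and type II receptor kinases, which phosphorylate SMAD1, SMAD5 and SMAD9, and these enter the nucleus with SMAD4. The ID genes are among the best known direct targets of that complex. ID proteins carry a helix-loop-helix domain but no DNA-binding region, so they capture E proteins and keep them from DNA. SMAD6, SMAD7 and BAMBI are also induced by the pathway, and their products restrain it at the receptors. Kidney development depends on BMP7, which the ureteric bud and nephron progenitors make.

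Total gene counts lay between 5634648 and 7551825 per library, so 3 counts, the limit that a count of 0 allows, corresponded to 0.407 to 0.545 CPM (counts relative to library size, scaled by TMM below). Intervals and limits of this kind cover counting error only. FTO went from 105 ± 7.83 to 56.1 ± 4.21 CPM and ALKBH5 from 245 ± 10.3 to 186 ± 0.599 CPM (mean ± SD, n = 3 each), so both transcripts were lower in the double knockout and neither was lost. In bulk RNA, fewer cells that express a gene and less RNA per cell cannot be told apart. Of 13 markers of kidney epithelium and this lineage, 12 were tested and PAX8 had no count. Their summed level was 1057 to 1115 CPM of total gene counts in wild type and 1530 to 1550 in double knockout, with 9 genes higher and 1 lower. Beside these marker counts and those that follow, 28.6% of all tested genes were higher and 28.5% lower at an adjusted p under 0.05. Of 12 neuronal markers, 8 were tested and 6 were higher, with sums of 341 to 367 and 630 to 664 CPM. Fibroblast markers (3 of 9 tested, all 3 lower) summed to 16.7 to 20.1 and 11.0 to 13.5 CPM, endothelial markers (0 of 6 tested) to at most 3.10 CPM, and haematopoietic markers (1 of 8 tested) to at most 3.91 CPM in any library. COL1A2, CLDN5, CD3E and HBB had no count. The part of these differences in the results below was not tested.

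Promoter sequence is shown for 3 genes that stand for the 3 outcomes below: SMAD6, which fell, ID4, which rose, and ID1, which did not pass the test. Each line gives the 250 bases before the RefSeq transcription start in GRCh38.p14, written 5′ to 3′ on the strand of the gene. Capitals mark GGAGCC on either strand, one of the GC-rich sequences that BMP-activated SMADs can bind. They also mark GTCTAGAC, a palindrome that holds the SMAD box. GGCGCC, the other GC-rich sequence searched, had no match in these 3 windows. SMAD6 lies at chr15:66701986-66702235 on the plus strand, ID4 at chr6:19837120-19837369 on the plus strand and ID1 at chr20:31605039-31605288 on the plus strand.
SMAD6: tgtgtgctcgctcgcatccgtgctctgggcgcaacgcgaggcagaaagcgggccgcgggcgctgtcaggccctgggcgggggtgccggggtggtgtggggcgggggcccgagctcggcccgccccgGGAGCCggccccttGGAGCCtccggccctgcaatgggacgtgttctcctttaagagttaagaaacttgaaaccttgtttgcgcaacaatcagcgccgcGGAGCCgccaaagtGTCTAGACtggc
ID4: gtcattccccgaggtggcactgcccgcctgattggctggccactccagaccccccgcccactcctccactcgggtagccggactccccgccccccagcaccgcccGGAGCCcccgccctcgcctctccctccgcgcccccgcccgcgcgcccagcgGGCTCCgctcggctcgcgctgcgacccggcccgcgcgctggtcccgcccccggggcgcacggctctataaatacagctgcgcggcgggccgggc
ID1: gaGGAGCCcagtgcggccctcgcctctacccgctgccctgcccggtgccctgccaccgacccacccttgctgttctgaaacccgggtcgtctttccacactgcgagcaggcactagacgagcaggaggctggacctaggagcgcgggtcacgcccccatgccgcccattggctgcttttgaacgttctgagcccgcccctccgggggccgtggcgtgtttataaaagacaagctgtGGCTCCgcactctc
The palindrome GTCTAGAC starts at position -12 of the SMAD6 window, counted from the RefSeq transcription start, and its last bases lie past the start of the gene in GENCODE release 29. It was in 1 of 13 windows of the 9 genes with an entry in the RefSeq promoter table, against 0.182% of all 35116 windows of this length. GGAGCC on either strand was in 8 of the 13 windows, 1 for each of 8 genes, and in 30.6% of all windows. GGCGCC was in 2 of 13 (BMP4 and BAMBI) against 16.4%, and the short SMAD box GTCT, which also lies within the palindrome, in 12 of 13 against 77.5%. The cyclic AMP response element TGACGTCA was in 0 of 13 against 1.65%, and TGACG, its first bases, in 1 (ID3) against 21.2%. Over 1 window for each of 10092 tested genes, the shares were 0.129% for GTCTAGAC, 39.8% for GGAGCC, 26.8% for GGCGCC, 74.3% for GTCT, 2.93% for TGACGTCA and 29.7% for TGACG. The GC content was 66.0% in the ID1 window, 68.0% in SMAD6 and 78.8% in ID4, and ID2 was the gene without GGAGCC. The element that mediates BMP induction of ID1 lies further upstream than this window. BMP7 was not matched in the promoter table.

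Among the ID genes, ID2 and ID4 were higher in the double knockout, whereas ID1 and ID3 did not pass the test. ID4 (ENSG00000172201.11, chromosome 6, 19837386 to 19840684, hg38), the family member known for roles in neural progenitors, measured 52.2, 58.4 and 62.1 CPM in the wild type libraries. The double knockout libraries gave 83.1, 87.9 and 88.0 CPM. All double knockout libraries lay above all wild type libraries. ID4 rose 1.51-fold, by 0.59 on the log2 scale (SE 0.06, 95% interval 0.48 to 0.71, edgeR quasi-likelihood test, adjusted p = 7.90e-21). ID2 (ENSG00000115738.9, chromosome 2, 8678845 to 8684453) measured 84.0, 88.4 and 85.3 CPM in the wild type libraries and 112, 111 and 113 CPM in those of the double knockout. These groups did not overlap either, and the double knockout libraries were close together. ID2 rose 1.30-fold, by 0.38 (SE 0.05, 95% interval 0.28 to 0.48, adjusted p = 1.46e-12).

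Both risen ID genes overlap an antisense gene on the opposite strand. ID2-AS1 had 116 counts over the 6 libraries beside 1732 ID2 counts over the wild type and 2101 over the double knockout libraries, and AL022068.1, which overlaps ID4, had 60 counts over the 6 libraries. The library kit keeps strand, but the sources used here do not give the strand setting of the counting, so reads of each pair cannot be told apart. The antisense counts were few beside those of ID2 and ID4, but they do not limit how many reads of the overlaps went to either gene. ID2-AS1 rose by 1.02 on the log2 scale, in the same direction as ID2. AL022068.1 was at 0.48 and did not pass the test.

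ID1 and ID3, which share many targets and are often induced together by BMPs, did not pass. ID1 (ENSG00000125968.8, chromosome 20, 31605283 to 31606515) measured 11.8, 10.9 and 11.6 CPM in the wild type libraries and 12.8, 14.2 and 11.4 CPM in those of the double knockout. The groups overlapped, and with 230 and 240 counts in the 2 groups the estimate of 0.16 had a 95% interval from -0.11 to 0.43 (adjusted p = 0.312). That interval includes the fitted change of ID2. ID3 (ENSG00000117318.8, chromosome 1, 23557918 to 23559794) measured 48.0, 51.6 and 56.8 CPM in the wild type libraries and 46.3, 49.4 and 52.6 CPM in those of the double knockout. Its groups overlapped over most of their range. The estimate for ID3 was -0.07 with a 95% interval from -0.20 to 0.07 (adjusted p = 0.434), an interval that holds neither the change of ID2 nor that of ID4.

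**Figure D1:**
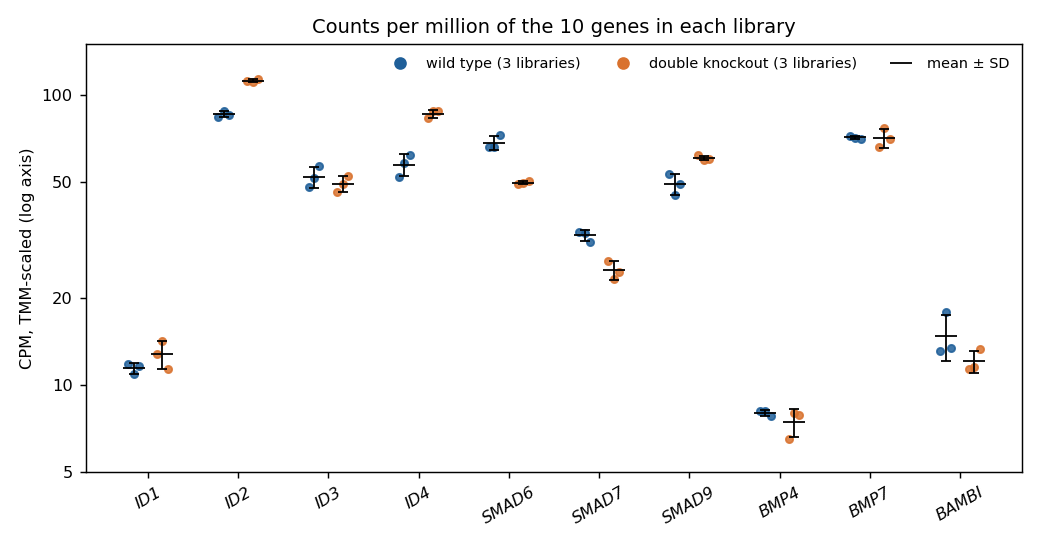
TMM-scaled CPM of the 10 genes (log axis) in 3 wild type and 3 double knockout libraries, one point per library, with the mean and SD as black bars. ID2, ID4 and SMAD9 sit higher and SMAD6 and SMAD7 lower in every double knockout library, while the groups overlap in the other 5 genes.

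Whether the ID genes changed unequally was asked with ratios of raw counts (plus 0.5) within each library, which need no scaling between libraries. The log2 ratio of ID3 to ID4 was -0.12, -0.18 and -0.13 in wild type and -0.84, -0.83 and -0.74 in double knockout. It was lower in all 3 double knockout libraries, by 0.66 on average (exact permutation test, two-sided, p = 0.1, which is the lowest p this design can give). The log2 ratio of ID2 to ID3 was 0.81, 0.78 and 0.59 in wild type and 1.27, 1.17 and 1.10 in double knockout. It was higher in all 3 double knockout libraries, by 0.46 (exact p = 0.1). Between the risen genes, the log2 ratio of ID2 to ID4 was 0.68, 0.60 and 0.46 in wild type and 0.43, 0.34 and 0.36 in double knockout, so ID4 gained on ID2 as well (difference -0.20, exact p = 0.1). The ratio of ID1 to ID4 was lower without overlap (difference -0.43, exact p = 0.1), and the ratios of ID1 to ID2 (difference -0.23) and of ID1 to ID3 (difference 0.23) overlapped between the groups (exact p = 0.2 each). Of 6 pairs, 4 separated the groups, and with adjustment over the 6 pairs their p was 0.15, so none passed a threshold of 0.05, which this design cannot reach.

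**Figure D2:**
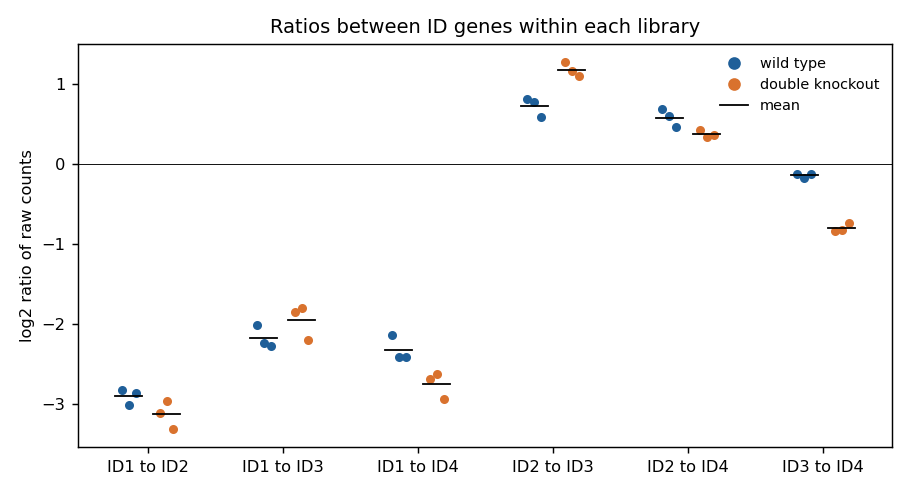
Log2 ratio of raw counts between each pair of ID genes within each library, with the group mean as a black line. The ratio of ID3 to ID4 moves furthest, from about -0.14 in wild type to -0.80 in double knockout, and only the ratios of ID1 to ID2 and of ID1 to ID3 overlap between the groups.

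The inhibitory SMADs were both lower. SMAD6, which blocks BMP type I receptors and competes with SMAD4 for activated SMAD1, measured 66.3, 66.1 and 73.0 CPM in the wild type libraries and 49.3, 49.7 and 50.4 CPM in those of the double knockout (ENSG00000137834.14, chromosome 15, 66702228 to 66782848). The groups were well apart, and the double knockout libraries lay close together. On the log2 scale SMAD6 fell by 0.45 (SE 0.06, 95% interval -0.58 to -0.32, adjusted p = 4.56e-11), to 0.731 of its wild type level. SMAD7, which restrains both BMP and TGF-beta receptors and recruits SMURF ubiquitin ligases, measured 33.7, 33.5 and 31.2 CPM in the wild type libraries and 26.8, 23.2 and 24.5 CPM in those of the double knockout (ENSG00000101665.9, chromosome 18, 48919853 to 48952052). Its groups did not overlap. SMAD7 fell by 0.41 (SE 0.09, adjusted p = 2.26e-05), to 0.753 of wild type. Tested against a minimum change of 1.2-fold, SMAD6 still passed (glmTreat adjusted p = 0.00207) and SMAD7 did not (0.055).

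SMAD9, a receptor-activated SMAD whose gene is itself induced by BMP signalling and whose protein is a weak activator, went the other way from the inhibitory SMADs. It measured 53.5, 45.1 and 49.4 CPM in the wild type libraries and 61.9, 59.9 and 60.3 CPM in those of the double knockout (ENSG00000120693.13, chromosome 13, 36844831 to 36920765). The groups did not overlap, and wild type replicate 1 was the nearest to the double knockout. SMAD9 rose by 0.30 (SE 0.07, adjusted p = 2.71e-05), or 1.23-fold. When libraries were scaled by the added spike-in RNAs its change was 0.19 with adjusted p = 0.135, and against a minimum of 1.2-fold it did not pass (0.301).

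BAMBI, a transmembrane pseudoreceptor without a kinase domain, measured 13.1, 17.8 and 13.4 CPM in the wild type libraries and 11.3, 11.5 and 13.3 CPM in those of the double knockout (ENSG00000095739.10, chromosome 10, 28677342 to 28682939). The groups overlapped, since double knockout replicate 3 lay above wild type replicate 1. The fit called it lower by a narrow margin, at -0.30 (SE 0.13, 95% interval -0.56 to -0.05, adjusted p = 0.0377). The estimate rested largely on wild type replicate 2. Without that library it was -0.14 (adjusted p = 0.442), without double knockout replicate 1 it was -0.27 (0.115), and without double knockout replicate 2 it was -0.27 (0.115). DESeq2 gave -0.30 with adjusted p = 0.191.

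Neither BMP ligand of the set passed the test. BMP7 (ENSG00000101144.12, chromosome 20, 57168748 to 57266629) measured 72.5, 71.1 and 70.6 CPM in the wild type libraries and 66.3, 76.6 and 70.4 CPM in those of the double knockout. The double knockout values spread to both sides of the wild type values. The 95% interval of its log2 fold change, -0.12 to 0.11, was the narrowest among the 4 genes that were not called (adjusted p = 0.951). BMP4 (ENSG00000125378.15, chromosome 14, 53949736 to 53958761) had the fewest counts of the 10 genes and measured 8.11, 8.15 and 7.81 CPM in the wild type libraries and 6.49, 8.0 and 7.84 CPM in those of the double knockout. Its groups overlapped, and only double knockout replicate 1 stood lower. With 162 and 140 counts in the groups, the estimate of -0.11 had a 95% interval from -0.45 to 0.23 (adjusted p = 0.617), which includes a fall as large as that of SMAD7 and does not include a rise as large as that of ID2.

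In all, 3 of the 10 genes were higher, 3 were lower and 4 did not pass. Over all tested genes 57.1% were called in either direction, 28.6% higher and 28.5% lower, so a share of 60.0% among these genes lies near the background. None of the 10 was called at 2-fold or more, against 6.0% of all tested genes (4.63% higher and 1.37% lower). The groups did not overlap in 5 of the 10 genes, with 3 higher and 2 lower, against 60.6% of all tested genes (30.3% higher and 30.3% lower). The median log2 fold change was -0.04 over the 10 genes and 0.01 over all tested genes, and regardless of sign the median change was 0.30 and 0.25. ID2, ID4 and SMAD9 rose and SMAD6 and SMAD7 fell in every double knockout library.

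**Figure D3:**
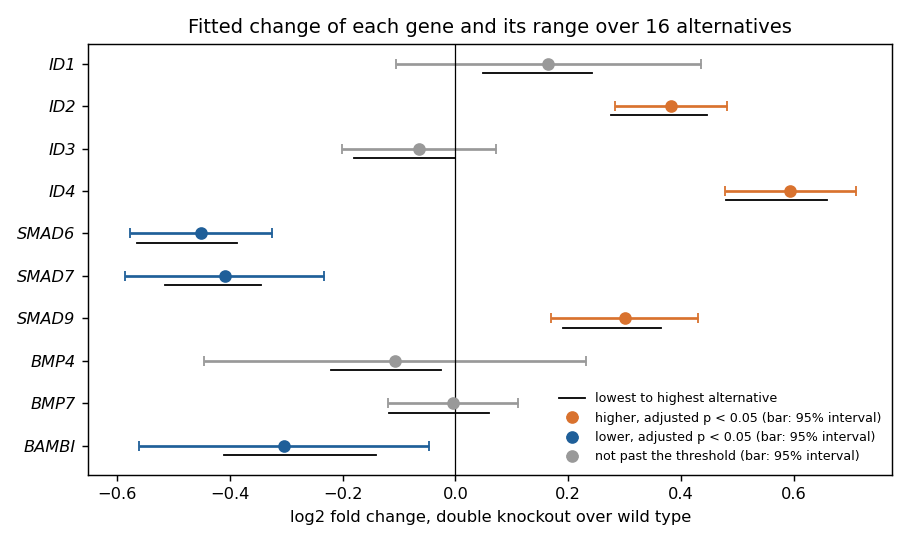
Log2 fold change of each gene (double knockout over wild type) with its 95% interval, coloured by call, and below it a thin line from the lowest to the highest value over 16 alternative settings. ID2, ID4 and SMAD9 stay above 0 and SMAD6, SMAD7 and BAMBI below 0 in each of these settings, and the line of BMP7 crosses 0.

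Scaling by the spike-in RNAs GFP and FLuc lowered the median of all genes by 0.11 on the log2 scale. On that scale ID4 was at 0.48, ID2 at 0.28, SMAD6 at -0.56, SMAD7 at -0.51 and BAMBI at -0.41, each past the threshold. The spike-in RNAs gave 316 to 440 counts per library, so this scaling carries more counting error than TMM.

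Some stretches of chromosome held many genes that were lower together, such as that around ACVR2B described below, so each gene was set beside up to 25 tested genes on either side of it. The medians of these neighbours were small, from -0.12 around BAMBI to 0.10 around SMAD9. Only 3 of 50 neighbours lay below SMAD6, which kept -0.44 after their median was subtracted, and 7 of 50 lay below SMAD7, which kept -0.36. ID4 lay above 43 of 50 neighbours and kept 0.59. ID2 lay above 28 of 42 neighbours and kept 0.31. SMAD9 kept 0.20 and BAMBI -0.18, since their neighbours leaned the same way. Around BMP4, 22 of 50 neighbours were lower and 5 higher (median -0.10), and BMP4 itself kept -0.01. The next tested gene to SMAD6 on chromosome 15, SMAD3, rose by 0.18 while SMAD6 fell.

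**Figure D4:**
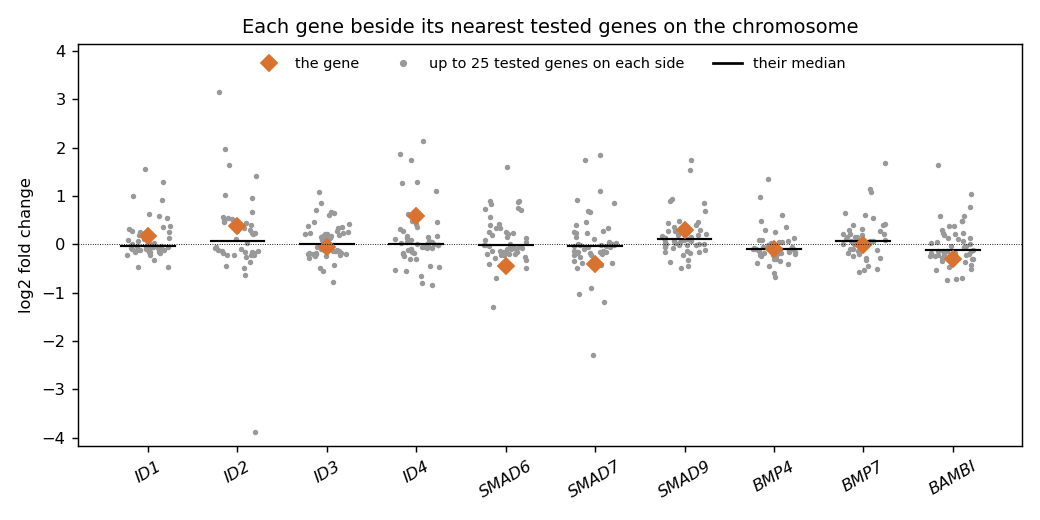
Log2 fold change of each gene (orange diamond) beside up to 25 tested genes on each side of it on the chromosome (grey points) and their median (black line). The medians lie between -0.12 and 0.10, and ID4 sits above 43 of 50 neighbours, while 3 lie below SMAD6 and 7 below SMAD7.

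Levels can be compared between genes only per length. Per kilobase of annotated exon in wild type, ID2 was the most abundant of the 10 at 39.0 CPM per kb (lowest 38.1, highest 40.1), followed by ID3 at 29.01, ID4 at 24.6 and BMP7 at 13.2, none of which overlapped the next. ID1 (9.27), SMAD9 (8.62) and SMAD6 (7.99) followed, and ID1 and SMAD9, and SMAD9 and SMAD6, overlapped. SMAD7 (6.52) and BAMBI (6.38) also overlapped, and BMP4 was lowest at 2.60. In the double knockout ID2 was at 50.8, ID4 had passed ID3 (36.8 and 27.5 CPM per kb, without overlap), and SMAD9 stood at 10.6 against 5.82 for SMAD6. The order of ID3 and of SMAD6 depends on the length used. Per kilobase of the longest coding transcript, a choice added after the values were seen, ID3 was at 41.7 CPM per kb in wild type, overlapping ID2 at 42.1, and at 39.5 in double knockout, where its range (37.0 to 42.1) overlapped that of ID4 (35.4 to 37.5, mean 36.8), so on this length ID4 did not pass ID3. On the same length SMAD6 was at 17.9 CPM per kb in wild type, overlapping BMP7 at 17.8 and above ID1 and SMAD9 (9.27 and 8.82). In the double knockout it was at 13.0 (12.9 to 13.1), above SMAD9 at 10.9 (10.7 to 11.1), the reverse of their order per annotated exon.

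The sequence GGACU, a frequent site of N6-methyladenosine, was counted as GGACT in the longest coding transcript of each gene. ID1 had 0 such sites, ID4 had 1, ID2, SMAD6 and BAMBI had 2 each, ID3 had 3, SMAD7 and SMAD9 had 4 each, and BMP4 and BMP7 had 6 each. Per kilobase BMP4 (3.13, higher than 99.1% of 12122 transcripts of tested genes) and ID3 (2.40, higher than 96.3%) were the densest, and neither passed the test of expression. ID4 (0.43) and SMAD6 (0.52) were below the median of 0.93, and they moved in opposite directions. The pentamer AUUUA, found in unstable mRNAs and counted as ATTTA, was densest in BAMBI (3.20 per kb), followed by BMP4 and SMAD6 (2.09 each), against a median of 1.07, while SMAD7 had 0.68. Over all tested genes the median density of ATTTA was 1.51 in those called lower, 0.72 in those called higher and 0.99 in those not called. The medians for GGACT were 0.85, 0.99 and 0.95 in the same order. These counts are descriptions of the annotated sequence, and which of these sites carry a methyl group was not measured.

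The other genes of the pathway were taken from 9 lists by role. Of 138 genes listed, 89 were tested, 25 were higher, 28 lower and 36 did not pass, a share of 59.6% called beside the 57.1% of all genes. Genes tested only because they were abundant in 1 group had to differ, so these shares are descriptions. Among the SMADs that carry the signal, SMAD1 fell by 0.71 (from 27.6 ± 0.878 to 16.9 ± 0.54 CPM, n = 3 each, adjusted p = 6.71e-11) and SMAD5 fell by 0.18. SMAD4, their shared partner, was called at -0.16, but that call was lost in 11 of 16 alternatives. SMAD3 rose by 0.18, a call lost in 4 of 16, and SMAD2 was at -0.06 (adjusted p = 0.373). The fall of SMAD1 has neighbours on chromosome 4 with a median of -0.53, and SMAD1 kept -0.18 beside them.

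Receptors and co-receptors were mostly lower. Of 16 listed, 14 were tested, 9 were lower, 1 was higher and 4 did not pass, with a median of -0.23, where 28.5% of all tested genes were lower and 28.6% higher. The type II receptor gene ACVR2B fell by 0.78, in a stretch of chromosome 3 whose neighbours had a median of -0.52. BMPR2, the main BMP type II receptor gene, fell by 0.31 and the co-receptor gene HJV fell by 1.43, from 73 to 25 counts summed over the libraries. ACVR1C, a type I receptor of nodal and activin, rose by 0.93. Of 15 other BMP family ligands 7 were tested, and BMP2 fell by 0.79 while GDF6, BMP6 and BMP8B rose by 1.86, 0.49 and 0.34. The BMP8B call was lost in 6 of 16 alternatives. Of 14 TGF-beta, activin and related ligands 7 were tested and 4 rose, with INHBA, the activin A subunit gene, going from 4 to 41 counts over 3 libraries, INHBB from 25 to 90 and TGFB1 rising by 0.54. TGFB1, BMP8B and ACVR2B overlap other tested genes on the chromosome, and how reads of these overlaps were counted is not known. INHBA, INHBB and GDF6 passed the filter on low counts only through the double knockout libraries, and HJV only through those of wild type. Without such differences these genes would not have been tested. TGFB2 fell by 1.02, on 68 and 31 counts, and that call was lost without double knockout replicate 1 (adjusted p = 0.0591). That replicate had 5 counts, so TGFB2 reached the filter's limit in all 3 libraries only in wild type, where it is higher.

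Of 21 secreted antagonists and modulators 13 were tested, 4 were higher and 2 lower. That is 46.2% called, beside 57.1% of all tested genes (28.6% higher and 28.5% lower). NBL1, a BMP antagonist, rose by 1.19 (from 20.2 ± 1.08 to 46.1 ± 0.526 CPM, n = 3 each, adjusted p = 2.93e-35), CHRDL1 by 1.46 and FSTL3 by 0.95. SOSTDC1 fell by 1.79, on 64 and 17 counts, and it passed the filter on low counts only through the wild type libraries. FSTL1 fell by 0.31 in a stretch with a median of -0.59. NOG, which encodes noggin, had 29 and 37 counts and did not pass (adjusted p = 0.304). Of 23 intracellular regulators 21 were tested, 4 were higher and 8 lower. Their share called, 57.1%, was that of all tested genes. The ubiquitin ligase gene NEDD4L rose by 0.57, CTDSP1 by 0.55 and ZNF423, a SMAD cofactor gene, by 0.59. CTDSPL fell by 0.43 amid neighbours with a median of -0.54, USP15 fell by 0.28 and TOB2 fell by 0.26. USP15 overlaps another tested gene, FAM19A2, and how reads of the overlap were counted is not known.

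Other target genes of BMP and SMAD signalling were divided. Of 20 listed 13 were tested, 3 were higher, 2 lower and 8 did not pass. The share called was 38.5%, below the 57.1% of all tested genes (28.6% higher and 28.5% lower). MSX1 rose by 0.74, amid neighbours with a median of 0.43, HES1 by 0.40 and LTBP2 by 0.74. HEY1 fell by 0.24. DLX2 was called at -0.16, a call lost in 6 of 16 alternatives. The E proteins, which ID proteins bind, moved little. TCF4 fell by 0.23 and TCF12 fell by 0.18, and TCF3 was at 0.05 (adjusted p = 0.316). The TCF12 call was lost in 3 of 16 alternatives. TCF3 turned to -0.06 with spike-in scaling and was called at 0.12 (adjusted p = 0.0158) with upper-quartile scaling. Against a minimum of 1.2-fold, BMPR2, SMAD5, FSTL1, USP15, TOB2, HES1, HEY1, TCF4 and TCF12 did not pass. Of 21 tissue-specific factors that pair with E proteins only 6 were tested, and 5 of these rose (28.6% of all tested genes were higher), with TAL1 from 30 to 79 counts, HAND1 by 0.77 and OLIG2 by 0.64. The rest had too few counts to test. Among genes near that limit the filter favours those that differ between the groups, so this share is a description. TAL1 passed the filter on low counts only through the double knockout libraries, where it is higher. The OLIG2 call was lost without double knockout replicate 3 (adjusted p = 0.0506).

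**Figure D5:**
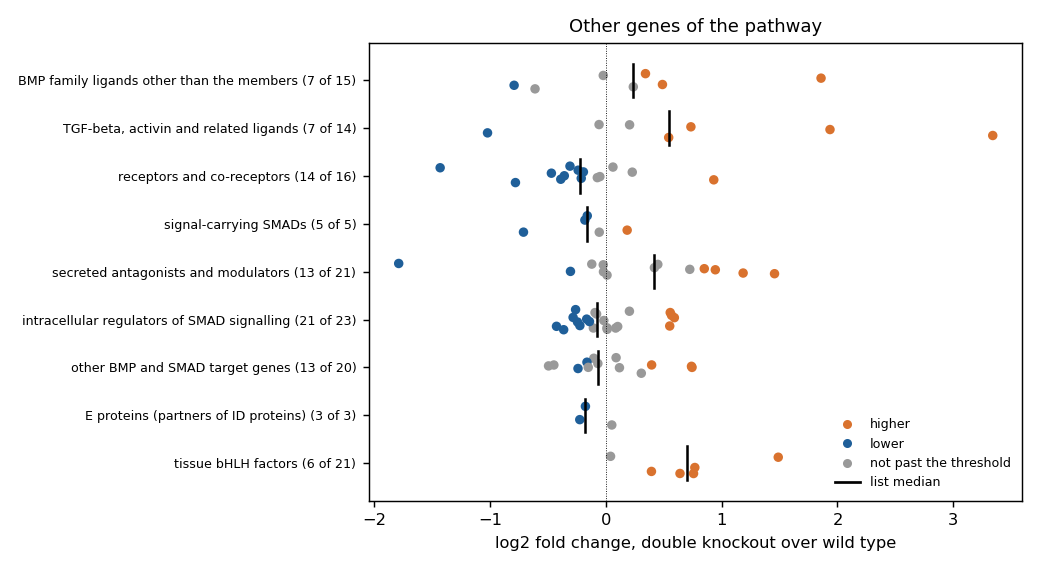
Log2 fold change of the tested genes of 9 pathway lists, coloured by call, with the list median as a black line and the number tested of those listed in brackets. Receptors lie mostly below 0 (median -0.23) and the tested tissue bHLH factors, only 6 of 21 listed, above it (median 0.70).

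Genes whose pattern over the 6 libraries was most like that of each ID gene were found by the Euclidean distance of log2 CPM after subtraction of the wild type mean, among 11001 genes with a mean of at least 50 counts. SBDS and PCGF3 were among the genes nearest to ID2, at distances of 0.044 and 0.047, and 58 genes lay within 0.1. HAGH, CLIP2 and MVB12B were nearest to ID4, at 0.081 to 0.086, with 4 genes within 0.1. ID1 had RTCA, PDCD6IPP2 and THAP1 (0.074 to 0.094) and ID3 had ALG1, KDM1B and NT5DC3 (0.084 to 0.091). No other ID gene and no gene of the pathway lists was among these nearest genes.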

How the data were processed

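Per the submitters' processing notes, reads were trimmed with cutadapt 2.10, aligned with STAR 2.7.6a to hg38 and counted per gene with featureCounts. The deposited values are raw read counts per gene without normalisation, plus 4 spike-in rows. The sources used here do not give the strand setting or how multimapping reads were handled. Columns named HEK293G6 were taken as wild type because they name no knockout and wild type is the only other genotype in the labels.

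Counts were analysed in R 4.3.3 with edgeR 4.0.16: filterByExpr defaults (minimum count 10, minimum total 15), TMM scaling, glmQLFit in robust mode and glmQLFTest, with Benjamini-Hochberg adjustment across the 14180 genes tested and a threshold of 0.05. SEs were derived from the F statistic, and 95% intervals use the fit's degrees of freedom. DESeq2 1.42.0, limma 3.58.1 voom, other scalings and filters, a replicate block, a minimum fold of 1.2 and leaving out libraries were alternatives. The fit was tested on simulated data. Exact permutation tests used scipy 1.17.1. Named genes were all 10 members, up to 3 called genes with the smallest p per list and direction, all signal-carrying SMADs and E proteins, both targeted genes and the 3 nearest genes of each ID gene, of which 1 is not reported here. NOG was added after its value was seen, as were SMAD3's place beside SMAD6 and the antisense genes. Members and lists were chosen with earlier results of these data known. Promoter windows are from RefSeq (GRCh38.p14), of which only the bases before the start were used, and those of ID2 and ID3 are not shown because most or all of their bases (202 and 250) lie in annotated exons. HFE2 was matched to HJV through RefSeq synonyms.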

Additional observations from a re-analysis of the deposited data

How the results depend on the processing

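The calls of ID2, ID4 and SMAD6 held in all 16 alternative fits, SMAD7 lost its call in 1, SMAD9 in 2 and BAMBI in 8, and no called member changed sign. The number of members called was 3 higher and 2 to 3 lower with any 1 library left out, 3636 to 3827 higher and 3772 to 3915 lower over all genes, and 22 to 29 higher and 25 to 27 lower over the pathway lists. With glmTreat at 1.2-fold, 1 member was lower, 2029 genes were higher and 1758 lower over all genes, and 8 genes of the lists were lower, because smaller changes are not counted. With spike-in scaling 2133 genes were higher and 4236 lower. Upper-quartile scaling gave 4972 higher and 3227 lower, and turned BMP7 to 0.060, SMAD2 to 0.0075 and KDM1B to 0.0032. BMP7 was also above 0 without double knockout replicate 1 (0.037) and replicate 3 (0.0020), and with a mean CPM of at least 5 (0.012). Over the fits that left out 1 library it ranged from -0.066 to 0.037, and with spike-in scaling it was -0.12. TCF3 turned to -0.057 with spike-in scaling. DESeq2 called 3027 higher and 3138 lower. The differences in the log2 ratio of ID3 to ID4 ranged from -0.69 to -0.64 and of ID2 to ID3 from 0.39 to 0.50, and no ratio changed sign. Replicate numbers did not pair the libraries (correlations of same-numbered libraries 0.011, 0.017 and 0.0085), and the replicate block left 3 members higher and 3 lower, with 4054 and 4055 genes over all. Depth limits BMP4, ID1 and BAMBI most.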

Other observations

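The count table holds a spike-in row named Rluc, which the labels do not mention, with 271 to 378 counts per library, beside GFP with 285 to 384. It was not used in any scaling here.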
